A study of Mus musculus with 18 samples.

Results

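Metallothioneins and zinc transport were followed through 5 genes, Mt1, Mt2, Mtf1, Slc30a1 and Slc39a8, in mouse erythroid cells switched on to mature. The genes were found by matching the array annotation's gene symbol, and each was read on its brightest probe set that the annotation ties to 1 gene. All 5 were measured and passed the filter on low values, among 18194 genes measured and 12720 tested. Together they have 12 such probe sets.

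Metallothioneins are small cysteine-rich proteins that bind zinc and copper and release them when the protein is oxidised. When free zinc rises, the zinc finger factor MTF1 binds short metal response elements in promoters and raises the transcription of metallothionein genes and of the exporter gene Slc30a1. Zinc enters the cytosol through transporters of the SLC39 family and leaves it through the SLC30 family, and red cell precursors need the metal for carbonic anhydrase and for zinc finger factors such as GATA1. In such precursors Slc39a8 and Slc30a1 are themselves known to be under the control of GATA1.

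The cells were G1E-ER4, a mouse line that lacks a working Gata1 gene of its own and carries GATA1 joined to part of the estrogen receptor, which estradiol makes active. Every array came from this 1 line, and all cells carried the disrupted gene and the fused factor. Total RNA was taken before estradiol (0 h) and after 3, 7, 14, 21 and 30 h in 20 nM estradiol, with 3 arrays per time and 18 in all. Cells grown for equal times with no estradiol were not analysed here, and effects of the hormone, of GATA1 and of hours in culture cannot be told apart. Arrays of 1 time are labelled as biological replicates, but no label names separate cultures. The p-values then measure only how these samples vary, which may be technical.

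Values are log2 expression values of Affymetrix arrays, on which a difference of 1 is a doubling. Each is relative to the middle of all probe sets on its array, since array medians lay between 4.04 and 4.09. Levels are compared between times for 1 probe set and not between genes. Fold changes and tests of genes come from 1 limma fit over all 18 arrays with Benjamini-Hochberg adjustment over the 12720 genes. Tests of probe sets other than the one used for a gene come from a separate fit, adjusted over 23632 probe sets. A change counts as called where the adjusted p is under 0.05. Each mean or SD rests on n = 3 arrays per time. An SE is that of the limma fit, which takes 1 spread per gene from all 18 arrays.

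As a check on the label of the cells, 7 of 8 tested erythroid markers were called higher at 30 h than at 0 h and 0 were called lower. Over all tested genes 36.6% were called higher and 33% lower. The erythroid list holds Gata1, which these cells carry as a disrupted gene and as the fused factor. Alas2, the first enzyme of heme synthesis in red cells, was 90.0-fold higher. Hba-a1 was too dim on its brightest 1-gene probe set to be tested, and no 1-gene probe set was found for Hbb-b1. Probe sets tied to several genes were not read, so whether globin transcripts rose was not settled here. Of 7 tested mast cell markers, 4 were called lower and 1 higher at 30 h, and the summed linear signal of the 8 measured ones ran from 433 to 532 at 0 h, from 86.8 to 89.2 at 21 h and from 91.2 to 104 at 30 h. Among 5 tested megakaryocyte markers, 2 were called higher and 2 lower at 30 h. The signal of the 3' end over the 5' end of 3 control transcripts, a sign of RNA quality, also moved: the log2 gap for actin averaged 1.89 at 0 h, 2.15 at 21 h and 2.20 at 30 h, that for Gapdh 1.13, 1.52 and 1.52, and that for Tfrc 1.79, 2.43 and 2.41. What part these markers or gaps have in the changes of the 5 genes was not tested. Shifting arrays to equal hybridisation controls in place of the deposited scale raised the median change of all genes at 30 h by 0.20, and turned the 4651 genes called higher and 4195 called lower into 4999 and 2585.

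The promoters of the zinc-responsive members are shown because matches to the metal response element are what these genes are known to share. RefSeq windows on GRCm38.p6, from 250 bases before to 50 after an annotated start, were found for all 5 genes, with 6 windows in all. Capitals mark matches to TGCACNC or TGCGCNC on either strand, so that a match on the other strand reads GNGTGCA or GNGCGCA. The windows of Mt2 at chr8:94172368-94172667, Mt1 at chr8:94178839-94179138 and Slc30a1 at chr1:191906531-191906830 are all on the + strand and written 5′ to 3′.
Mt2: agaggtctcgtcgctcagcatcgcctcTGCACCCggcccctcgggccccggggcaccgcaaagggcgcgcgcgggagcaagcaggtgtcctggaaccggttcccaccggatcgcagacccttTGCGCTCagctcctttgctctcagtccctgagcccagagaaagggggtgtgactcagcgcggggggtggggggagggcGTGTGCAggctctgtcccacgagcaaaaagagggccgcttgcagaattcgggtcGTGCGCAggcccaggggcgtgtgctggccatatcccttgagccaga
Mt1: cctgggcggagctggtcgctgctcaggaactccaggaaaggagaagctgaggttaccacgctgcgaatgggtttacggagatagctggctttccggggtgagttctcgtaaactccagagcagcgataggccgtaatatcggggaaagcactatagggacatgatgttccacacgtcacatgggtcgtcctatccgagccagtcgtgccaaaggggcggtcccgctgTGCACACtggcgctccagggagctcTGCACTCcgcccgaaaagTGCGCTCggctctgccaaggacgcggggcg
Slc30a1: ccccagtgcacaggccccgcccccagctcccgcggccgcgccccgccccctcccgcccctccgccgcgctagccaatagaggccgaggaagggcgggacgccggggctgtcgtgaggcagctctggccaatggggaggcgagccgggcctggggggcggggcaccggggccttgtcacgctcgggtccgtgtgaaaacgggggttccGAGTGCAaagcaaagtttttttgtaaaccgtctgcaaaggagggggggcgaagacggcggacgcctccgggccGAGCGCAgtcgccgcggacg

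Mt2's window held 4 matches, Mt1's 3 and Slc30a1's 2. Of all 32851 promoter windows, 25.7% held at least 1 match, 1.97% held 3 or more and 0.517% held 4 or more. Counted from the window's own start, the matches in Mt2 began at bases -223, -128, -50 and 5, and those in Mt1 lay between base -23 and base 27. Mtf1's own window held 0 matches. Slc39a8 has 2 windows, and the second held 1 match together with 1 match to the GATA motif searched (the letters GATA with A or T before them and A or G after them, on either strand), which 29.8% of all windows hold. Mt1's window also held 1 GATA match, while those of Mt2, Slc30a1 and Mtf1 held 0. The start behind a window lies 206 bases inside the gene's annotated span for Mt1 and 84 for Slc30a1. The first base of those spans thus lies within the letters shown. For Mt2 and Mtf1 the start is the first base of the span. For Slc39a8 the starts lie 8397 and 8775 bases inside, so that its span begins outside both windows. Starts other than those behind the windows were not analysed. A match is a description of letters and not a bound site.

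On chromosome 8 the metallothionein genes stand side by side in the order Mt4, Mt3, Mt2 and Mt1, with Nup93 next to Mt1. Across the time course the 5 genes followed 3 kinds of course. Both metallothioneins fell to 21 h and were higher again at 30 h, Mtf1 and Slc39a8 climbed, and the exporter gene Slc30a1 went down, up, down and then up. The change over time passed limma's F test for all 5, with adjusted p-values between 5.28e-15 for Mt2 and 1.19e-08 for Mtf1, in a data set in which 74.3% of tested genes passed it.

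**Figure D1:**
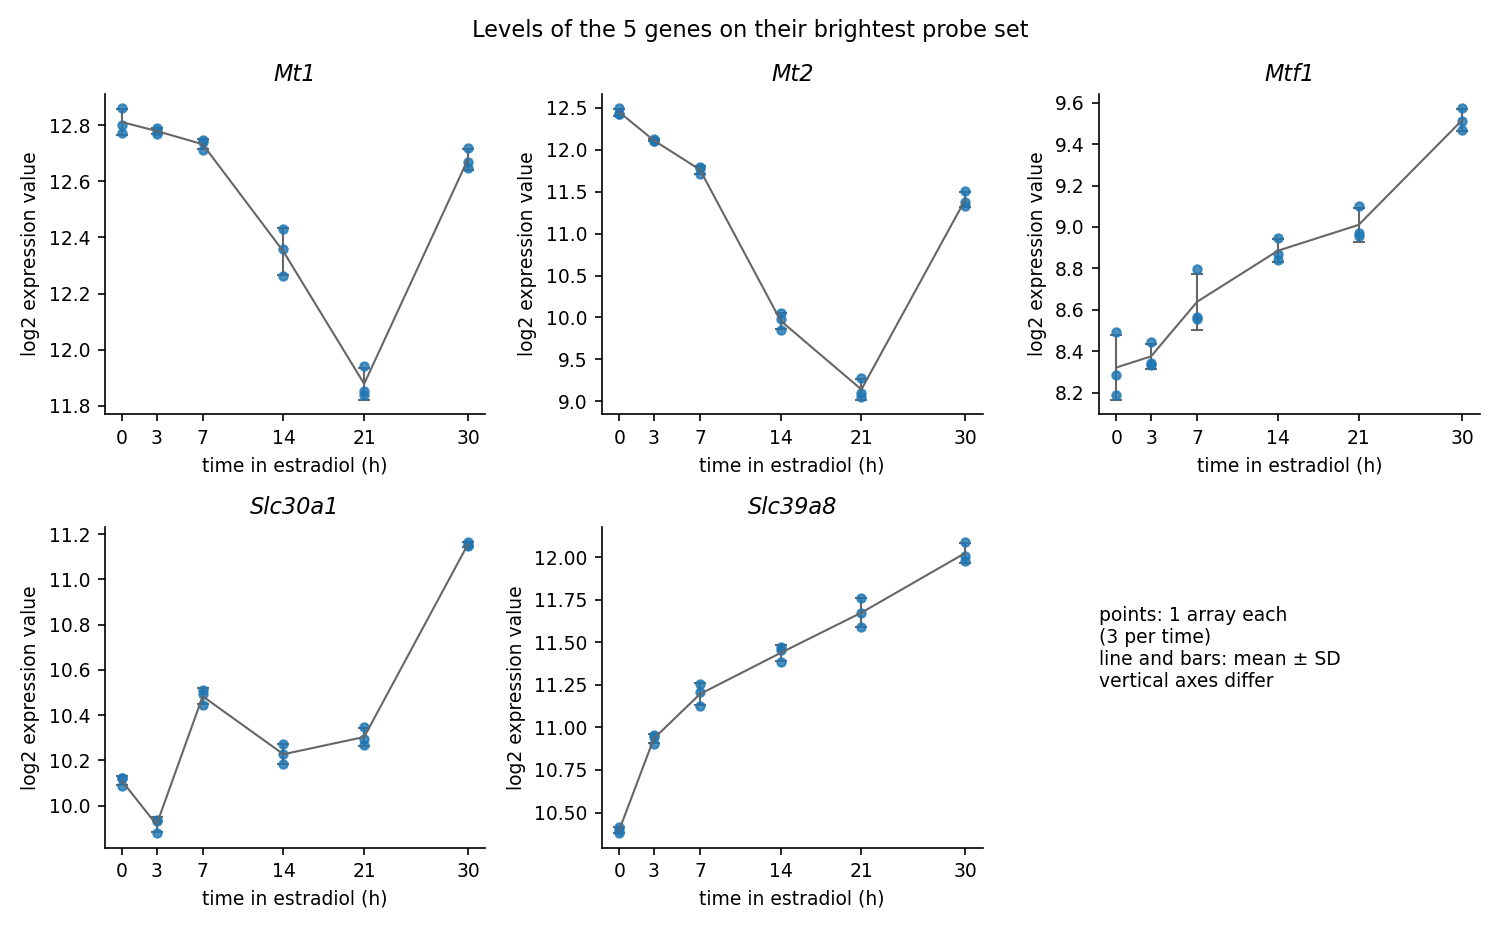
Log2 expression value (vertical axis, with its own range in each panel) against hours in estradiol for the 5 genes on their brightest probe set. Points are single arrays, 3 per time, and lines and bars are the mean and SD. Mt1 and Mt2 have their lowest points at 21 h, while the other 3 genes have their highest at 30 h.

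Mt2, a metallothionein of most tissues, had the widest course, with time means that span 3.31. Its 3 arrays read 12.50, 12.42 and 12.43 at 0 h, 12.12, 12.11 and 12.10 at 3 h, and 11.78, 11.79 and 11.71 at 7 h. They then read 9.86, 9.98 and 10.05 at 14 h and 9.10, 9.05 and 9.28 at 21 h, before 11.51, 11.37 and 11.33 at 30 h. No 2 times overlap, so that each of the 6 times has its own range. In bulk RNA, fewer cells that make a transcript and less of it per cell cannot be told apart.

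On the deposited scale every time differed from 0 h. Mt2 fell by 0.34 by 3 h (SE 0.07, limma adjusted p = 0.00201), by 0.69 at 7 h (1.49e-06 by the same test) and by 2.49 at 14 h (2.00e-13). The call at 3 h was lost after scaling to the hybridisation controls (-0.24, adjusted p = 0.655), as was that of the step from 3 to 7 h (adjusted p = 0.258). At 21 h it stood 9.90-fold below 0 h (log2 -3.31, SE 0.07, limma adjusted p = 2.96e-15). The largest single step down was that from 7 to 14 h, 3.49-fold, against 1.76-fold from 14 to 21 h. By 30 h it had regained 68.4% of its fall on the log2 scale and was 2.06-fold below its start (limma adjusted p = 1.11e-09). The order from lowest to highest was thus 21, 14, 30, 7, 3 and 0 h, and each neighbouring pair in it differed, with limma adjusted p-values up to 0.00251. In the pairs that are not steps or comparisons with 0 h, the background is high: 56.9% of genes differed between 30 and 14 h, 61.4% between 30 and 7 h and 48.6% between 21 and 7 h.

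Mt1, its neighbour and the other metallothionein of most tissues, moved less on the brighter of its 2 probe sets. That probe set read 12.80, 12.77 and 12.86 at 0 h, 12.78, 12.77 and 12.79 at 3 h, and 12.75, 12.71 and 12.74 at 7 h. It went on with 12.26, 12.36 and 12.43 at 14 h, 11.85, 11.84 and 11.94 at 21 h and 12.72, 12.67 and 12.65 at 30 h. The first 3 times lie within a narrow band, and the 14 and 21 h arrays lie below all others without touching each other.

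Changes of Mt1 at 3 h (log2 -0.03) and 7 h (-0.08) did not pass limma's test, with adjusted p-values of 0.712 and 0.294. It was 1.38-fold lower at 14 h (limma adjusted p = 2.85e-06) and 1.91-fold lower at 21 h (3.29e-10), and then 1.74-fold higher at 30 h than at 21 h (1.21e-08). The 14 h call was lost after scaling to the hybridisation controls (-0.23, adjusted p = 0.373). At 30 h it was called lower than at 0 h by a small margin (log2 -0.13, limma adjusted p = 0.0364), a difference that was 0.07 the other way after scaling to the hybridisation controls (adjusted p = 0.762) and 0.06 the other way on the second probe set (adjusted p = 0.591). Leaving out 1 array gave -0.15 to -0.11, with adjusted p-values from 0.0255 to 0.122. The levels at 30, 7, 3 and 0 h could not be put in order, since no neighbouring pair among them was called.

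Mt1's second probe set was dimmer and showed a course closer in size to that of Mt2. Its means ± SD were 6.76 ± 0.07 at 0 h, 6.27 ± 0.03 at 3 h and 6.23 ± 0.10 at 7 h. They were 5.18 ± 0.12 at 14 h, 5.10 ± 0.17 at 21 h and 6.82 ± 0.10 at 30 h. On it Mt1 was already called lower at 3 h (log2 -0.50, limma adjusted p = 0.000920), fell 3.17-fold by 21 h and rose 3.30-fold to 30 h, regaining 103% of the fall against 85.8% on the brighter one. The brighter probe set lies near the top of these arrays, where the highest value of any probe set was 14.4. It also carries a name ending in _s_at, which marks probes that can match more than 1 transcript. Whether either feature bears on the smaller change was not tested, nor was the difference between the falls of Mt1 and Mt2.

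**Figure D2:**
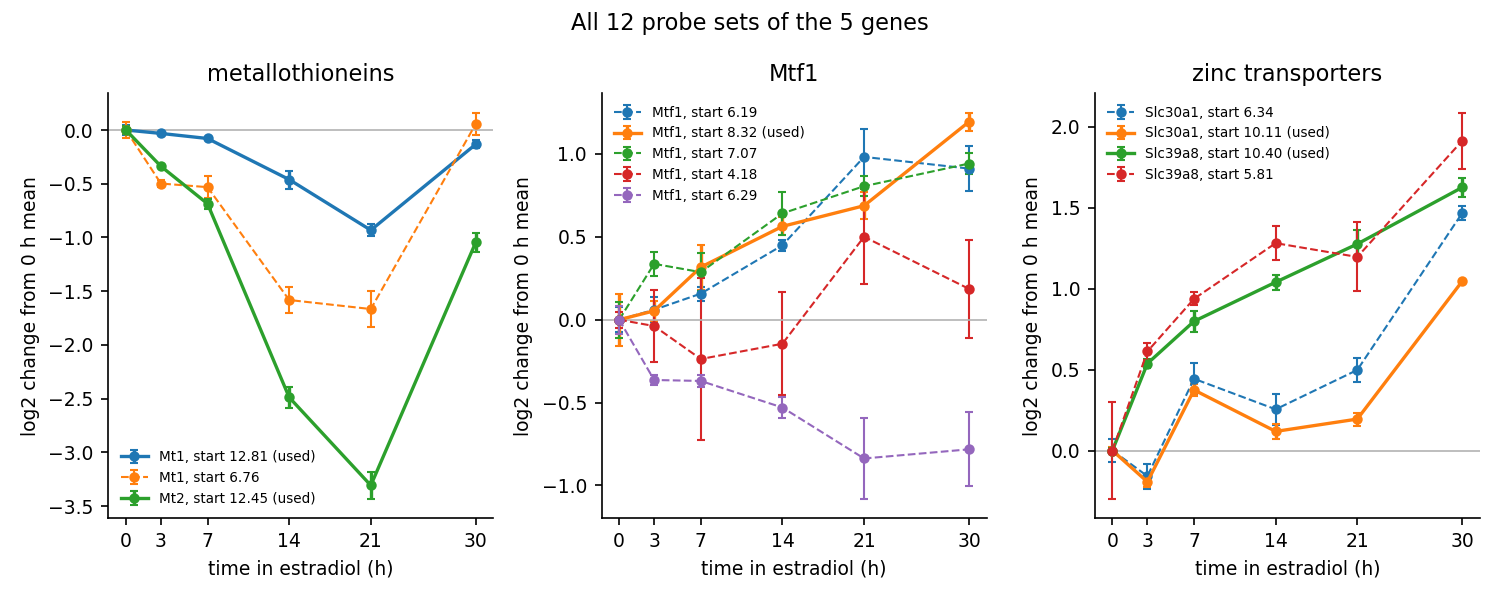
Change from the 0 h mean on the log2 scale against hours in estradiol for all 12 probe sets of the 5 genes, with thick lines for the probe set used and dashed lines for the others, each labelled by its 0 h mean. Points are means of 3 arrays and bars their SD. Both Mt1 probe sets turn upward after 21 h, while 1 of the 5 Mtf1 probe sets runs downward.

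Mtf1, which encodes the metal-responsive factor, climbed while both metallothioneins fell. The used probe set read 8.29, 8.19 and 8.49 at 0 h, 8.35, 8.45 and 8.34 at 3 h, and 8.80, 8.57 and 8.56 at 7 h. Later arrays read 8.84, 8.95 and 8.87 at 14 h, 8.95, 9.10 and 8.97 at 21 h and 9.47, 9.51 and 9.57 at 30 h. The 30 h arrays lie above all others, while those of 0 and 3 h overlap and 1 array at 7 h stands above the other two.

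The level rose by 0.32 at 7 h (SE 0.08, limma adjusted p = 0.00753), 0.56 at 14 h and 0.69 at 21 h, and it ended 1.19 up, a 2.29-fold rise over the whole course (limma adjusted p = 1.77e-09). The 7 h call was lost when all 5 probe sets were averaged (0.03, adjusted p = 0.765), with only the arrays compared (adjusted p = 0.0613) and after scaling to the hybridisation controls (adjusted p = 0.538). At 3 h it was not called (0.05, adjusted p = 0.683), nor was the step from 14 to 21 h (0.12, adjusted p = 0.273). The steps from 3 to 7 h and from 7 to 14 h passed narrowly, with limma adjusted p-values of 0.0415 and 0.0424. With the replicate number as a block they were 0.0642 and 0.0639, and leaving out single arrays gave 0.0220 to 0.198 and 0.0145 to 0.160.

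Mtf1's 5 probe sets did not all tell the same course. At 30 h against 0 h, 3 of them rose, by 1.19, 0.91 and 0.94, and a dim one with a 0 h mean of 4.18 was not called (0.19, limma adjusted p = 0.472 over 23632 probe sets). The fifth fell by 0.78, from 6.29 ± 0.08 to 5.51 ± 0.22 (limma adjusted p = 1.22e-05). The rise of 0.51 from 21 to 30 h (limma adjusted p = 0.000120 over genes) was seen on the used probe set only: the other risers gave -0.07 and 0.14, neither called (adjusted p = 0.562 and 0.213), and the mean of all 5 gave 0.06 (adjusted p = 0.495). Which transcripts the probe sets report was not analysed here.

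Slc30a1 encodes ZnT1, the exporter that moves zinc across the plasma membrane out of the cell. Its arrays read 10.12, 10.12 and 10.09 at 0 h, 9.93, 9.94 and 9.88 at 3 h, and 10.51, 10.49 and 10.44 at 7 h. After that they read 10.23, 10.18 and 10.27 at 14 h, 10.35, 10.29 and 10.27 at 21 h and 11.17, 11.15 and 11.15 at 30 h. The 30 h arrays agreed within an SD of 0.01 and lay well above the rest. The 14 and 21 h arrays run into each other and into no other time.

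It fell by 0.19 at 3 h (SE 0.05, limma adjusted p = 0.00569), then rose by 0.57 from 3 to 7 h (5.96e-07), calls that were both lost after scaling to the hybridisation controls (-0.10, adjusted p = 0.902, and 0.42, adjusted p = 0.390), as were those against 0 h at 7 and 21 h (adjusted p = 0.404 and 0.437). The next step, to 14 h, was 0.26 down (limma adjusted p = 0.000895), but 0.02 up after scaling to the hybridisation controls, which lifts the median of all genes in that step by 0.28. At 14 h the level was barely above 0 h (0.12, limma adjusted p = 0.0490), and that call was lost with the replicate block (adjusted p = 0.0626) and in 15 of 18 fits that leave out 1 array. From 21 to 30 h the exporter gene rose 1.81-fold (log2 0.85, limma adjusted p = 1.73e-09), which brought it to 2.07-fold over 0 h (7.48e-12). The second probe set rose 2.77-fold over the whole course and 1.96-fold in the last step, the latter with a limma adjusted p of 5.34e-08. From low to high the times ran 3, 0, 14, 21, 7 and 30 h, and among neighbours only 14 and 21 h were not called different (adjusted p = 0.231).

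Slc39a8 encodes ZIP8, an importer of zinc, manganese and other divalent metals, and it rose at every step. Its arrays read 10.40, 10.41 and 10.38 at 0 h, 10.90, 10.94 and 10.96 at 3 h, and 11.12, 11.21 and 11.26 at 7 h. They reached 11.46, 11.47 and 11.38 at 14 h, 11.59, 11.67 and 11.76 at 21 h and 12.09, 11.97 and 12.01 at 30 h. No 2 times overlap, and each lies above the one before.

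The rise began early, with 1.45-fold at 3 h (limma adjusted p = 4.36e-06), and came to 2.06-fold at 14 h and 3.09-fold at 30 h (log2 1.63, SE 0.06, limma adjusted p = 4.71e-13). Each of the 5 steps was called, with log2 sizes of 0.54, 0.26, 0.24, 0.24 and 0.35. The second, dimmer probe set rose 3.77-fold by 30 h (limma adjusted p = 2.04e-09). On it the step from 14 to 21 h could not be seen, with means of 7.09 ± 0.10 and 7.00 ± 0.21. After scaling to the hybridisation controls the steps to 7, 14 and 21 h were 0.12, 0.52 and 0.02 and none was called, while the changes from 0 h stayed called at each time.

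Counted together against 0 h, 1 of the 5 genes was called higher and 2 lower at 3 h, where 11.2% and 14.7% of all tested genes were. At 7 h it was 3 higher and 1 lower, against 15.3% and 16.3%. From 14 h on it was 3 higher and 2 lower each time, against 22.2% and 22.7% at 14 h, 31.4% and 28.6% at 21 h, and 36.6% and 33% at 30 h. Each time the genes called lower were among Mt1, Mt2 and, at 3 h, Slc30a1.

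In the steps, 3 rose and 1 fell from 3 to 7 h, against 9.8% and 5.14% of all genes. From 7 to 14 h 2 rose and 3 fell, against 11.5% and 10.8%. The 3 that fell were both metallothioneins and Slc30a1. From 14 to 21 h 1 rose and 2 fell, against 15.7% and 17.5%. From 21 to 30 h all 5 rose and 0 fell, against 18% and 22.5%, with folds of 1.74 for Mt1, 4.80 for Mt2, 1.42 for Mtf1, 1.81 for Slc30a1 and 1.27 for Slc39a8. On the mean of each gene's probe sets 4 rose, since Mtf1 was then not called. Over that last step the mast cell markers gave 2 higher and 0 lower of 7 tested, and the 3'-to-5' gap of actin was 2.15 at 21 h and 2.20 at 30 h.

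The other metallothionein genes were dim. Mt3, first known from brain, rose from 4.65 ± 0.36 at 0 h to 5.66 ± 0.15 at 30 h (2.02-fold, limma adjusted p = 0.000102), and its step from 21 to 30 h was not called (0.14, adjusted p = 0.576). Mt4, known from stratified epithelium, had a mean of 2.91 at 0 h and 3.27 at 30 h and was not called (adjusted p = 0.0813). The turn after 21 h was thus called in 2 of the 4 family members, Mt1 and Mt2, which are already counted above. In that step 18% of all tested genes were called higher.

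Of 10 SLC30 exporter genes 8 were tested, and at 30 h against 0 h 3 were called higher and 3 lower, with a median change of 0.14 beside 0.09 for all tested genes. These counts at 30 h against 0 h, and those of the lists that follow, stand beside 36.6% of all tested genes called higher and 33% called lower. Next to Slc30a1, the risers were Slc30a10, a manganese exporter at the cell surface, by 1.07, and Slc30a9, which handles zinc in mitochondria, by 0.87. Slc30a10 ran ahead of Slc30a1, with a mean of 9.18 at 0 h that was 9.94 by 3 h, 10.64 by 14 h and 10.25 by 30 h, and it fell in the last step by 0.29 (limma adjusted p = 0.00119) where Slc30a1 rose.

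Slc30a2 encodes ZnT2, which loads zinc into vesicles, and it had the largest measured change of the family. Its arrays read 7.27, 7.20 and 7.50 at 0 h and 5.99, 6.13 and 5.97 at 3 h. At 30 h they read 3.60, 3.78 and 3.11, near the array's 40th percentile of 3.20 to 3.35. The measured fall was 14.2-fold (limma adjusted p = 2.04e-11), to values not shown to lie above background, so its size is uncertain. It had already fallen by 1.86 at 7 h, where its mean was 5.47. The level at 30 h was not called different from that at 21 h (-0.21, adjusted p = 0.394). Slc30a5 and Slc30a6, whose products pair to carry zinc into the secretory pathway, fell by 0.31 and 0.43, and both calls were lost after scaling to the hybridisation controls. Slc30a7 was not called on its used probe set (0.05, adjusted p = 0.608), while its other probe set fell by 0.87.

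**Figure D3:**
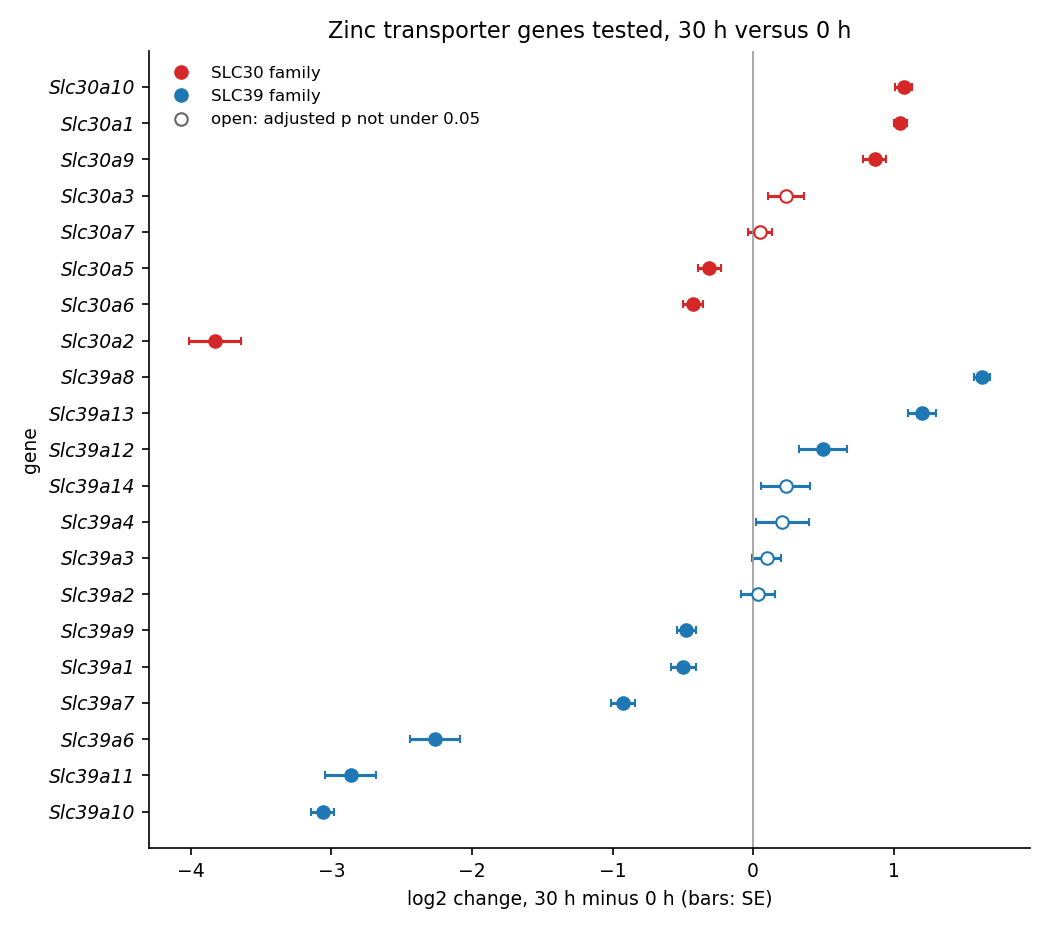
Log2 change from 0 to 30 h (horizontal axis) with its SE for the 21 tested zinc transporter genes, the SLC30 family in red and the SLC39 family in blue; open symbols did not pass an adjusted p of 0.05. Slc39a8 has the largest rise at 1.63, and Slc30a2, Slc39a10 and Slc39a11 lie far to the left.

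Among 14 SLC39 importer genes 13 were tested, with 3 called higher and 6 lower at 30 h and a median change of 0.03. With Slc39a8, Slc39a13, an importer of the secretory pathway, rose by 1.20. The count of 3 also holds Slc39a12, with means of 2.71 and 3.21 at or under the array's 40th percentile, which passed the filter mainly through 30 h arrays and whose call was lost without replicate 1 or 2 of 30 h. Slc39a10, a plasma membrane importer that MTF1 is known to repress, read 10.86, 10.97 and 11.00 at 0 h. It read 8.70, 8.73 and 8.43 at 21 h and 7.88, 8.01 and 7.76 at 30 h. Its mean fell at every step, already from 10.9 at 0 h to 10.7 at 3 h. Slc39a10 ended 8.35-fold below its start (limma adjusted p = 1.90e-14). Its second probe set fell by 4.07 to a mean of 3.61, near the array's 40th percentile of 3.20 to 3.35, so the size of that fall is uncertain.

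Slc39a11 fell 7.27-fold, from 7.55, 7.45 and 7.46 at 0 h to 5.07, 3.99 and 4.81 at 30 h (limma adjusted p = 6.74e-10). Its 30 h arrays spread widely (SD 0.56), and the value of 3.99 lies under the lowest array median of 4.04, so the size of the fall is uncertain. Slc39a6, a close relative of Slc39a10 that also acts at the plasma membrane, fell by 2.26 on its used probe set, while its 2 dimmer ones were not called, at -0.08 and 0.02. Slc39a7, which releases zinc from the endoplasmic reticulum, fell by 0.93 and Slc39a1, a plasma membrane importer, by 0.50, a call lost after scaling to the hybridisation controls. Slc39a9 fell by 0.47 on the used probe set but was 0.02 higher on the mean of its 3 probe sets, and its call was also lost after that scaling. From 21 to 30 h the SLC39 list gave 4 higher and 4 lower, against 18% and 22.5% of all tested genes. Slc39a10, Slc39a11, Slc39a6 and Slc39a7 fell further in that step, by 0.74, 0.84, 0.48 and 0.47, while Slc39a1 and Slc39a9 had their lowest means at 21 h and rose by 0.25 (limma adjusted p = 0.0341) and 0.18 (0.0449), with Slc39a8 and Slc39a13 the other risers.

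**Figure D4:**
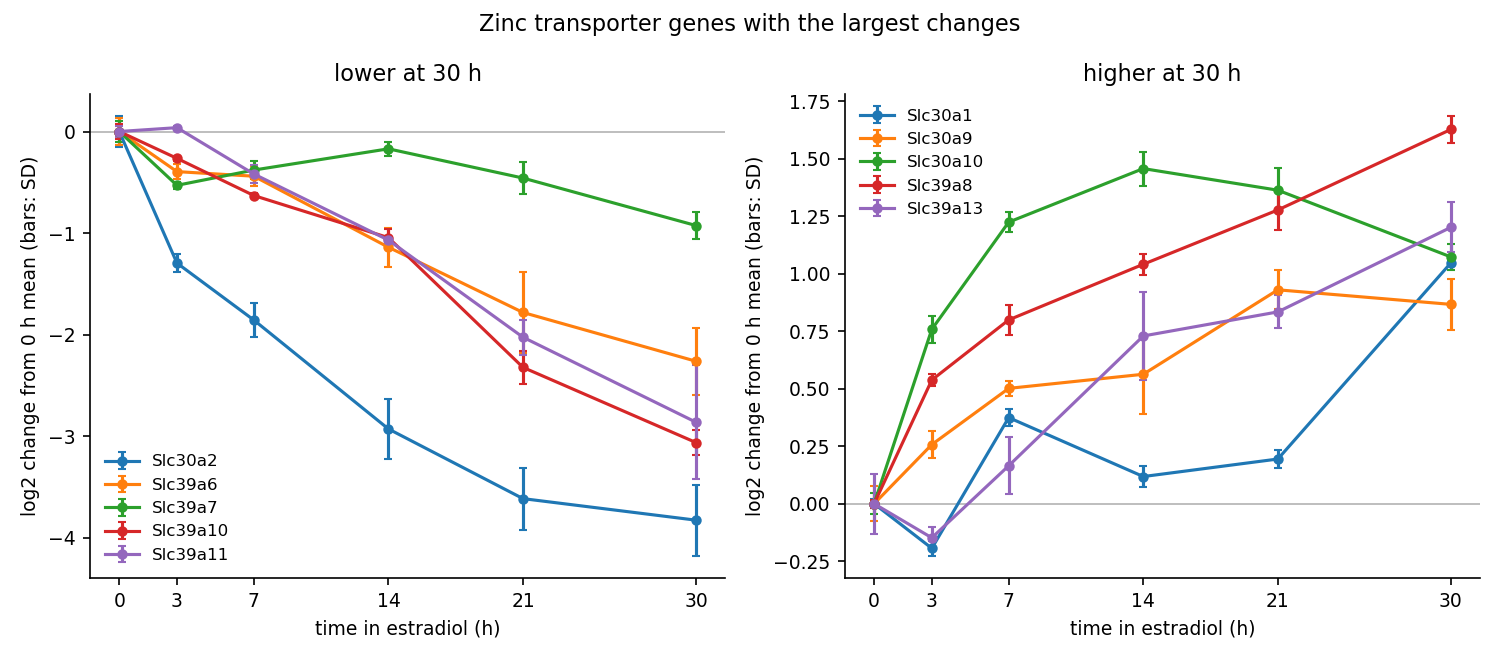
Log2 change from the 0 h mean against hours in estradiol for the zinc transporter genes with the largest changes, those lower at 30 h on the left and those higher on the right, with separate vertical ranges. Points are means of 3 arrays and bars their SD. Slc30a1 climbs from 0.19 at 21 h to 1.05 at 30 h while Slc30a10 comes down in the same step.

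Of 9 other genes known to answer to MTF1, 8 were tested, 4 higher and 2 lower at 30 h, with a median of 0.20, a split near the 36.6% and 33% of all tested genes. Txnrd2, the mitochondrial thioredoxin reductase, rose by 2.17 and Gclc, the catalytic subunit for glutathione synthesis, by 0.58, while Selenoh, a nuclear selenoprotein, fell by 0.96 and Slc39a10 is given above. In the last step the same list gave 2 higher and 2 lower, against 18% and 22.5% of all tested genes.

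Copper shares metallothionein as a binder, and all 10 genes listed for its handling were tested, 6 higher and 3 lower at 30 h, with a median of 0.28. The copper pump gene Atp7a rose by 1.74, and the importer gene Slc31a1 by 1.65 and its relative Slc31a2 by 1.03. Sco1, which delivers copper to cytochrome oxidase, fell by 0.98.

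Metallothionein genes also answer to oxidative stress and to glucocorticoids. Of 12 tested oxidative and heat stress genes 7 were higher and 4 lower at 30 h (median 0.26). In the step from 21 to 30 h 6 were higher and 1 lower, against 18% and 22.5% of all tested genes. The median change in that step was 0.27, beside 0.01 for all genes. Hmox1, which breaks down heme, read 6.72, 6.75 and 6.40 at 0 h, 6.49, 6.32 and 6.48 at 21 h and 8.50, 8.43 and 8.30 at 30 h. It was 3.94-fold higher at 30 h than at 21 h (limma adjusted p = 5.49e-10), with no overlap between the times. By 30 h against 0 h the heat shock gene Hspa1b had risen by 1.24 and Srxn1, which repairs oxidised peroxiredoxin, by 0.85, while the cystine carrier gene Slc7a11, counted among the 4 lower, had means of 3.25 at 0 h and 2.36 at 30 h, at or under the array's 40th percentile, so the size of its difference is not well measured.

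Of 8 glucocorticoid-induced genes, 1 was higher and 6 lower at 30 h, with a median of -1.02. Fkbp5, a receptor chaperone, fell by 3.23, Nfkbia, the inhibitor of NF-kB, by 2.06 and Klf9 by 1.18, while the phosphatase gene Dusp1 rose by 1.52. From 21 to 30 h this list gave 3 higher and 2 lower (median 0.17), against 18% and 22.5% of all tested genes. Whether oxidative stress or glucocorticoids bear on the courses of Mt1 and Mt2 was not tested.

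Likeness was measured as the root mean square difference, over the 5 changes from 0 h, between a member and every other tested gene. It is not scaled to the size of a course, so distances of members with unlike spans are not on a par. Mt2's means span 3.31, against 1.63 for Slc39a8 and 1.19 for Mtf1. Mt2's nearest gene, Tcf7l2, lay 0.60 away and Ttyh2, the last of 5, 0.74. Tcf7l2, a factor of Wnt signalling, fell by 2.81 at 21 h and stood at -1.90 at 30 h, where Mt2 stood at -1.05. Slc30a1's nearest was Coprs at 0.12, followed by Zfp746, Borcs6, Tdrd7 and Bet1l up to 0.15, none of which had its rise of 0.37 at 7 h (0.04 to 0.21). Mtf1 was closely tracked by Mien1 at 0.05, Tesk2, Msmo1, Intu and Npc2 at 0.07, and Slc39a8 by Emc9 at 0.03, Zfp707, Mvb12b, Zfp346 and Tfe3 at 0.08. Mt1's means span less than 1 on the used probe set, and no neighbours were sought for it. These distances describe 6 time means from the same arrays and carry no test.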

How the data were processed

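Per the labels' protocols, total RNA taken up in Trizol was biotin-labelled for Affymetrix arrays. The table the authors deposited gives log2 values of 45101 probe sets on 18 arrays, base 2 being inferred from their range. Array medians are nearly equal, so the values were scaled before deposit; no source used here gives the summary, background and scaling methods, and unknown background steps can shrink folds of dim genes.

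Genes were named from the platform annotation (34958 probe sets with 1 gene, 932 with several, 9211 with none), and a RefSeq table changed 0 symbols. Tested genes exceeded the 40th percentile of the array in 3 or more arrays. limma 3.58.1 in R 4.3.3 fitted a mean per time, with 12 residual degrees of freedom and two-sided tests, after checks on simulated data. The 3 arrays per time limit the precision.

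The members, lists and tests were chosen with earlier results of these data known. Beside the 5 members, named genes are the called metallothionein, SLC30 and SLC39 genes, up to 4 called genes with the largest change at 30 h of each other list, and the 5 genes most like each member. Values of Mt4, of Slc30a7 and of marker genes, and times or probe sets singled out, were chosen after their values were seen. Replicate numbers are not stated to mark a shared culture or day, so no block was used in the main fit. The mean correlation of 45 same-number pairs was 0.01, from -0.17 to 0.19, which cannot exclude such sharing. Alternatives were other scalings, filters, probe set rules, samples in the fit and variance models, the replicate block, and leaving out each array.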

Additional observations from a re-analysis of the deposited data

How the results depend on the processing

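Of 495 member changes under other settings, 438 kept their direction and their side of the threshold, 45 lost the call, 6 gained one and 6 changed sign. With 1 array left out it was 769 of 810, with 40 lost and 1 changed in sign. Other filters, every probe set tested, only the arrays compared, another variance model and the replicate block leave the change itself as it was. Its direction could not differ under those settings. Mt2 has 1 probe set, so the probe set rules do not alter its change either. The calls of Mt2 at 7, 14, 21 and 30 h, of Mtf1, Slc30a1 and Slc39a8 at 30 h, and of Mt1, Mt2, Slc30a1 and Slc39a8 from 21 to 30 h held under every setting. With the replicate block Mtf1 lost its calls from 3 to 7 h (0.26) and from 7 to 14 h (0.25), and Slc30a1 that at 14 h against 0 h (0.12), which left 1 member rising from 7 to 14 h; no other member call changed with it. The same 3 calls were lost with quantile normalization (0.26, 0.24 and 0.10), with every probe set tested, with no filter and with only the arrays compared. The cause was not tested.

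Mt1 at 30 h against 0 h lost its call at equal medians (-0.12), with no filter and with only the arrays compared (-0.13), and on the mean of probe sets (-0.038), leaving 1 member and 1 metallothionein gene called lower. Without _x_at and _s_at probe sets, which moves Mt1 to its other probe set, it was 0.057 there, called lower at 3 h (-0.50) and 7 h (-0.53) and not from 14 to 21 h (-0.084), with counts of lower members of 2 at 7 h and 1 from 14 to 21 h, and Slc30a1 at 14 h (0.12) was not called. On the mean of probe sets Mt1 was called at 3 h (-0.26) and 7 h (-0.31), Mtf1 lost 7 h (0.031) and the steps to 7 h (0.021), 14 h (0.16) and 30 h (0.063) but gained that to 21 h (0.23), Slc30a1 gained the step to 21 h (0.16) and Slc39a8 lost it (0.075). There 2 members were lower at 7 h, 1 rose from 7 to 14 h and 2 from 14 to 21 h, and Slc39a9 stood at 0.018 at 30 h. With only the arrays compared, calls were also lost for Mtf1 at 7 h (0.32), Slc30a1 at 21 h (0.19) and Slc39a8 from 7 to 14 h (0.24) and 14 to 21 h (0.24), so that 0 members rose in either step, and 2 metallothionein genes were higher at 30 h.

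Scaling to the hybridisation controls moved the median of all genes by 0.23 at 14 h, 0.20 at 30 h, -0.15 from 3 to 7 h, 0.28 from 7 to 14 h, -0.22 from 14 to 21 h and 0.19 from 21 to 30 h, and by less than 0.1 elsewhere. Against 0 h it called 463 genes higher and 285 lower at 3 h (1420 and 1871 before) and 2791 and 812 at 14 h (2829 and 2887); for the steps it gave 127 and 173, 1315 and 158, 122 and 1656, and 1680 and 753, in order of time. Signs changed for Mt1 at 3 h (0.066) and 30 h (0.070), Mtf1 from 14 to 21 h (-0.091), and Slc30a1 from 7 to 14 h (0.021) and 14 to 21 h (-0.14). Calls were lost for Mt1 at 14 h (-0.23) and from 7 to 14 h (-0.10), Mt2 at 3 h (-0.24) and from 3 to 7 h (-0.49), Mtf1 at 7 h (0.27) and in the steps to 7 h (0.12) and 14 h (0.52), Slc30a1 at 3, 7, 14 and 21 h (-0.10, 0.33, 0.35 and 0.21) and from 3 to 7 h (0.42), and Slc39a8 in the steps to 7, 14 and 21 h (0.12, 0.52 and 0.020). Member counts became 0 lower at 3 h, 1 higher at 7 h, 1 lower at 14 and 30 h, 0 either way from 3 to 7 h, 0 higher and 1 lower from 7 to 14 h, and 0 higher from 14 to 21 h. The number called higher at 14 and at 21 h also dropped, by the loss of Slc30a1. At 30 h this scaling called 2 metallothionein genes higher and 1 lower, 1 SLC30 gene lower and 2 stress genes lower.

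With 1 array left out, Mt1 at 30 h ran from -0.15 to -0.11 (4 of 18 fits lost the call), Mtf1 at 3 h from -0.014 to 0.14, Mtf1 from 3 to 7 h from 0.19 to 0.31 (9 lost) and from 7 to 14 h from 0.20 to 0.32 (12 lost), and Slc30a1 at 14 h from 0.10 to 0.14 (15 lost). Counts of members and of metallothionein genes lower at 30 h, and of members rising from 7 to 14 h, ran from 1 to 2. All values are relative to the middle of the array, detection was not analysed, and values near the 40th percentile, as for Slc39a12 and Mt4, are weakly measured.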
